A study of Mus musculus with 18 samples.

Results

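The Adamts proteases and Timp inhibitors measured here are 8 genes, Adamts1, Adamts4, Adamts5, Adamts9, Adamts10, Timp1, Timp2 and Timp3, taken by symbol from the 21638 genes of the deposited count table. The set was chosen by the measured levels and group differences of its lead genes, Adamts1 and Adamts5, in these same libraries, so differences of the lead genes are given as descriptions with a standard error and no test. Messenger RNA was sequenced from cortical endothelium of adult mice, sorted on day 7 by the endothelial protein CD31 and the absence of the platelet and leukocyte proteins CD41 and CD45. There were 18 libraries in 6 groups of 3. Wild-type sham mice and wild-type mice with middle cerebral artery occlusion (MCAO, a model of ischaemic stroke) each gave ipsilateral libraries, from the side of the surgery, and contralateral libraries, from the opposite side. The other two groups were ipsilateral libraries of occluded mice labelled Hdac2 ECKO or Ezh2 ECKO, in which floxed alleles of the histone deacetylase gene Hdac2 or the histone methyltransferase gene Ezh2 were to be deleted by a tamoxifen-inducible Cre under the endothelial Cdh5 promoter. All 6 groups, the wild-type ones included, carried the label of tamoxifen at 75 mg per kg. The labels gave neither the number of animals behind a library nor whether both sides came from one mouse, so p-values measure only the spread between these libraries.

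ADAMTS proteins are secreted zinc metalloproteases with thrombospondin repeats that bind them to the matrix. Adamts1, Adamts4, Adamts5 and Adamts9 cleave the hyalectans aggrecan, versican and brevican, large proteoglycans that fill the extracellular space of brain and lie beside the vascular basement membrane, and Adamts10 is known for its part in fibrillin microfibrils. TIMPs are small secreted proteins that occupy the catalytic site of metalloproteases; Timp3 stays bound to the matrix and is the member that inhibits ADAMTS proteases such as Adamts4 and Adamts5, while Timp1 and Timp2 act chiefly on matrix metalloproteinases.

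The catalytic centre that makes the 5 Adamts members proteases is shown by the stretch of coding sequence that encodes its 3 zinc-binding histidines. Each sequence is 33 bases of the coding strand, 5′ to 3′, from the GENCODE M21 transcripts on GRCm38, with the 3 histidine codons in capitals. In every one of the 5 genes the stretch crosses an exon junction, so the genomic span is longer than 33 bases.
Adamts1, chr16:85799191-85799545, - strand: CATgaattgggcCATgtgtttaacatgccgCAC
Adamts4, chr1:171253210-171253915, + strand: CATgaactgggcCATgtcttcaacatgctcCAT
Adamts5, chr16:85878015-85887826, - strand: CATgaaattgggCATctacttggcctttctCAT
Adamts9, chr6:92905285-92908493, - strand: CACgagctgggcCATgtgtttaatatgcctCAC
Adamts10, chr17:33538157-33538279, + strand: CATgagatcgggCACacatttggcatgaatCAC
The Adamts1 sequence was identical to that of Adamts9 at 28 of 33 bases, to that of Adamts4 at 27, and to those of Adamts5 and Adamts10 at 20 each. Adamts1 and Adamts5 are neighbours on chromosome 16, both on the minus strand. Adamts1 lies at chr16:85793827-85803113 and Adamts5 at chr16:85856173-85901828, with 53.1 kb and 0 genes of the table between them. The other members lie on chromosomes 1 (Adamts4), 6 (Adamts9), 17 (Adamts10), X (Timp1), 11 (Timp2) and 10 (Timp3).

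Of the 8 genes, 2 were abundant. Levels between genes were compared as CPM, counts per 1000000 counts of the scaled library, per kilobase of the deposited feature length. Timp3 ran from 36.0 to 124 CPM per kilobase over the 18 libraries, with a median of 64.7, and Adamts1 from 17.6 to 100.4, with a median of 34.9. The next medians were 1.91 for Timp2, 1.88 for Adamts10, 1.29 for Timp1 and 0.892 for Adamts9. Adamts5, at a median of 0.162, and Adamts4, at 0.0983, were lowest. The ranges of Timp2, Adamts10, Timp1 and Adamts9 overlapped, so their order is not fixed beyond the spread over libraries. All 8 passed the filter of at least 10 counts in at least 3 libraries; Adamts1, Adamts9, Adamts10, Timp2 and Timp3 had at least 10 counts in 18 libraries, Adamts5 in 15, Timp1 in 14 and Adamts4 in 11.

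**Figure D1:**
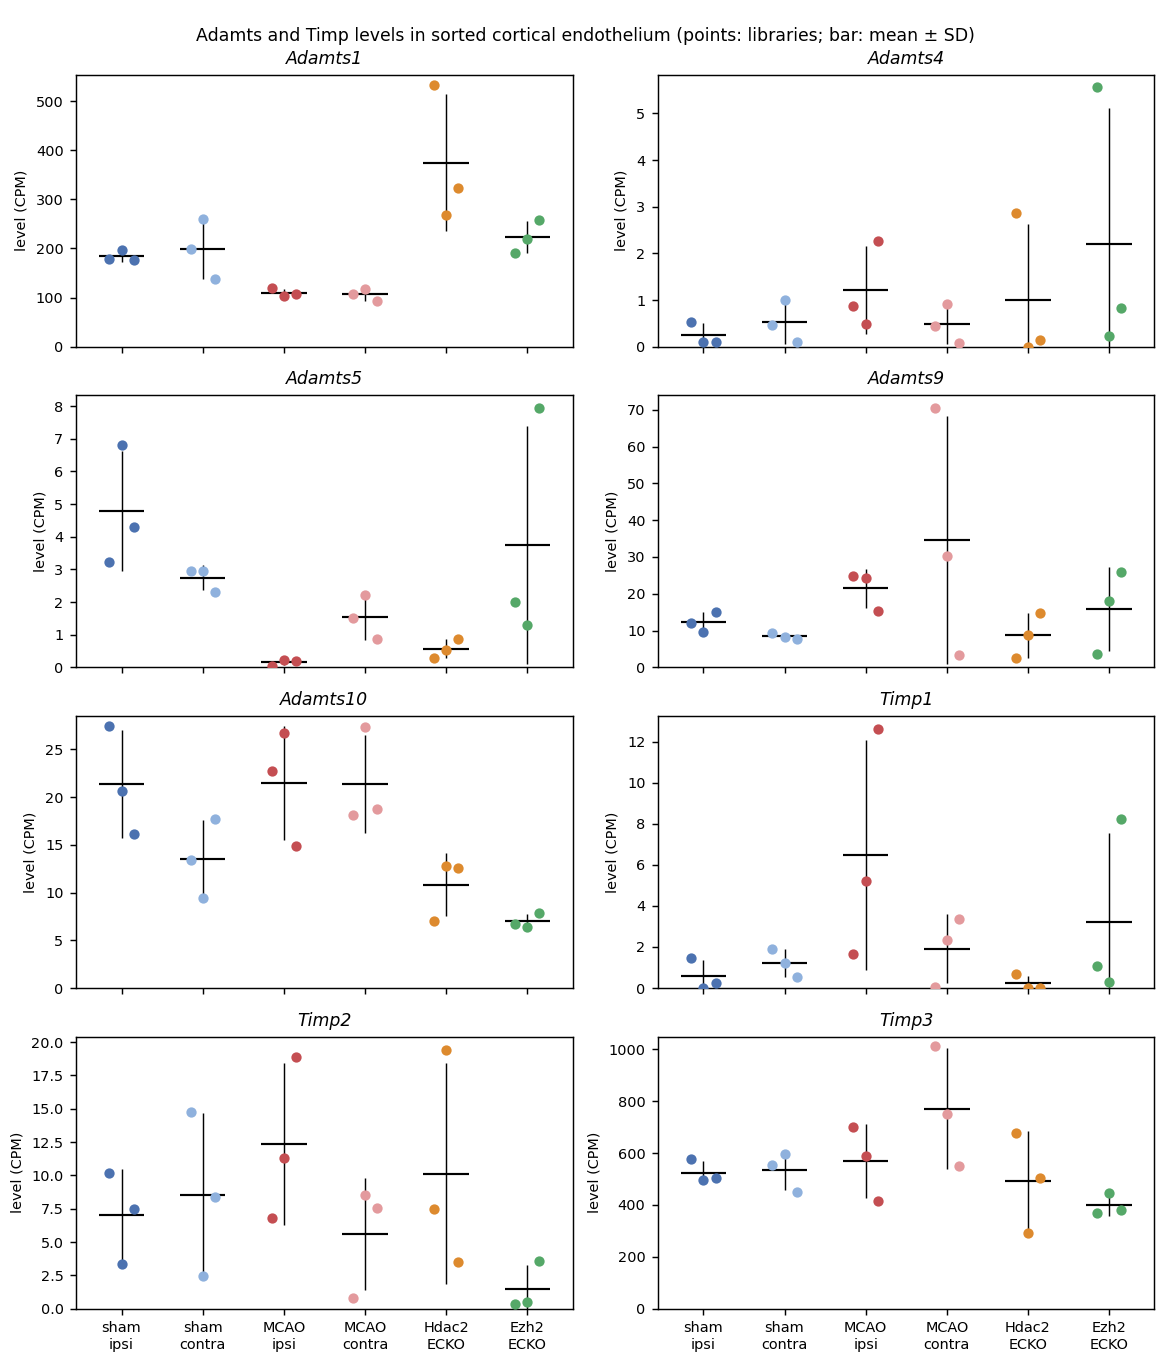
Level of each of the 8 genes in CPM (vertical axes start at 0, and each panel has its own scale) in the 18 libraries; points are libraries, horizontal bars group means and vertical lines 1 SD, drawn no lower than 0. Adamts1 was between 93.2 and 119 CPM in the 6 wild-type MCAO libraries and between 138 and 532 CPM in the other 12.

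Total counts ran from 25791401 to 57576255 per library, and 3 counts, taken as the detection floor, corresponded to 0.0619 to 0.101 CPM. The 12 endothelial markers summed to between 8300 and 27387 CPM and the 9 pericyte markers to between 9.51 and 159 CPM. The 6 red cell markers summed to 70.5 to 671 CPM in the 3 libraries labelled Ezh2 ECKO, below every library of the other groups. They summed to 38267 to 65446 CPM in MCAO ipsilateral and 49294 to 297852 CPM in Hdac2 ECKO libraries, and the lowest sham ipsilateral library held 19222 CPM. In Ezh2 ECKO against MCAO ipsilateral, 5 of the 6 were lower at an edgeR adjusted p under 0.05, which 1.46% of all tested genes reached. The part of this difference in the Ezh2 ECKO comparisons was not tested. Olfactory and vomeronasal receptor genes, 1466 rows of genes that endothelium is not known to use, held 152 to 2083 CPM in all and served as a measure of diffuse background per kilobase. MCAO contralateral replicate 1 correlated least with the other libraries (median r of 0.762). Against MCAO ipsilateral libraries the targeted genes did not follow their labels: Hdac2 stood at 76.8 ± 16.8 CPM (SD, n = 3) in the libraries labelled Hdac2 ECKO against 82.9 ± 14.0 in MCAO ipsilateral ones, and Ezh2 at 13.4 ± 5.76 in those labelled Ezh2 ECKO against 6.44 ± 1.77. Hdac2 was lower in Hdac2 ECKO than in Ezh2 ECKO libraries, at 138 ± 19.0 CPM in the latter. That log2 difference was -0.85 ± 0.32 (SE, edgeR adjusted p = 0.315). Ezh2 ECKO itself lay above MCAO ipsilateral in Hdac2 by 0.74 ± 0.32 (edgeR adjusted p = 0.216). The table gives 1 value per gene, and levels of the floxed exons were not analysed here.

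Adamts1 was lower in MCAO than in sham endothelium on both sides and highest in the libraries labelled Hdac2 ECKO. In the sham ipsilateral libraries it stood at 179, 198 and 176 CPM, and in the sham contralateral ones at 199.97, 259.8 and 138 CPM. The MCAO ipsilateral libraries held 119, 104 and 107 CPM, and the MCAO contralateral ones 108, 118 and 93.2 CPM. No MCAO library of either side reached the lowest sham library. The libraries labelled Hdac2 ECKO held 532, 269 and 322 CPM, and those labelled Ezh2 ECKO 192, 220.0 and 258 CPM. All 6 lay above all 6 wild-type MCAO libraries, and the lowest Hdac2 ECKO library lay above the highest Ezh2 ECKO one.

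As group means these levels were 184 ± 11.8 CPM (SD, n = 3) in sham ipsilateral and 110.1 ± 8.29 in MCAO ipsilateral libraries, a log2 difference of -0.74 ± 0.30 (SE). On the contralateral side 199 ± 60.9 CPM in sham stood against 106 ± 12.5 in MCAO, a log2 difference of -0.91 ± 0.31. Within MCAO the sides differed by 0.05 ± 0.30 and within sham by -0.11 ± 0.30, both less than 1 standard error, and the former was -0.13 with RLE scaling. The difference from sham on the occluded side was 0.16 ± 0.43 above that on the opposite side, again less than 1 standard error, and -0.03 with RLE scaling. Against MCAO ipsilateral, the log2 difference was 1.77 ± 0.31 for Hdac2 ECKO, at a mean of 375 ± 139 CPM, and 1.02 ± 0.31 for Ezh2 ECKO, at 223 ± 33.03 CPM. These 2 differences share the MCAO ipsilateral libraries. Set directly against each other, Hdac2 ECKO was higher than Ezh2 ECKO by 0.75 ± 0.30. Replicate 1 of Hdac2 ECKO carried part of both values: without it the difference from MCAO was 1.38 and that from Ezh2 ECKO 0.35.

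A ratio within each library does not depend on the scaling between libraries or on the share of red cell transcripts. Per kilobase, Adamts1 stood at 54.3 ± 6.83% (SD, n = 3) of Timp3 in sham ipsilateral and 56.5 ± 10.0% in sham contralateral libraries. It stood at 30.9 ± 7.43% in MCAO ipsilateral and 22.2 ± 5.13% in MCAO contralateral libraries. The ratio was above 100% in 3 libraries, all labelled ECKO: it was 120.5, 141 and 98.0% in Hdac2 ECKO and 80.0, 75.6 and 104% in Ezh2 ECKO. The 3 ranges, 16.4 to 39.5% in MCAO, 46.9 to 66.9% in sham and 75.6 to 141% in the ECKO libraries, did not overlap. This describes a lead gene chosen on these values, and no share over all genes was taken for such pooled ranges. Hdac2 ECKO and Ezh2 ECKO libraries did overlap with each other in this ratio, unlike in CPM. The count of the Timp3 row is uncertain, since it may share reads with Syn3, as given with Timp3, so the size of these percentages and the crossing of 100% carry that uncertainty. Transcript ratios say nothing of protein or of protease activity. In bulk libraries fewer cells of a type cannot be told apart from less RNA per cell. The 9 pericyte markers summed to 68.8 to 159 CPM in sham, 9.51 to 76.3 in MCAO, 11.8 to 63.3 in Hdac2 ECKO and 19.3 to 159 in Ezh2 ECKO libraries, with 0 of the 9 at 0 in all libraries of a group. Replicate 1 of Hdac2 ECKO and replicate 3 of Ezh2 ECKO, with the most Adamts1 of their groups, also had the highest pericyte sums of their groups (63.3 and 159 CPM). The part of these cells in the Adamts1 values was not tested.

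**Figure D2:**
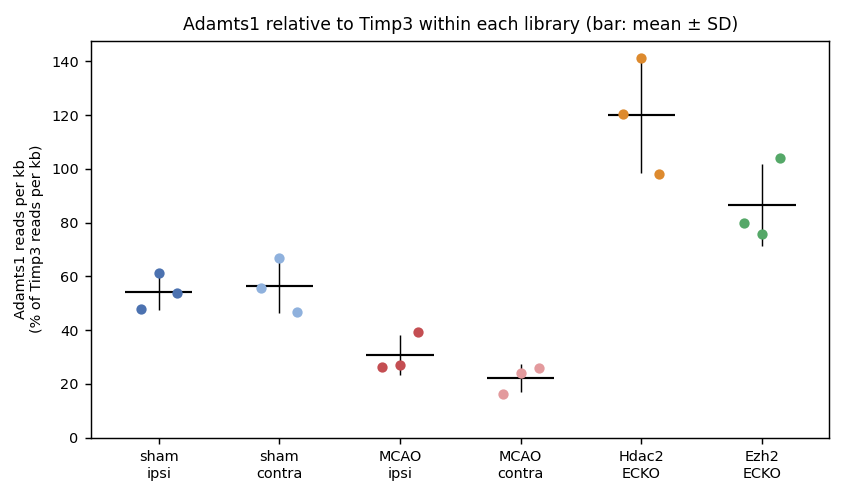
Adamts1 counts per kilobase as a percentage of Timp3 counts per kilobase in the same library (vertical axis, from 0) for the 6 groups; points are libraries, bars the mean and lines 1 SD. The 6 sham libraries lie between 46.9 and 66.9%, above the 6 MCAO libraries and below the 6 ECKO libraries.

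The sequence before the Adamts1 start is printed because the gene was read at a high level in all 18 libraries. That of Timp1 is printed because, of the 5 members with a promoter window, it alone matched ACGTG. Each is 250 bases up to the base before the start in RefSeq (build GRCm38.p6), 5′ to 3′ on the gene's own strand, with matches to the searched motifs in capitals. The motifs were TATAAA (the TATA box), GGGCGG (the GC box), TGANTCA (AP-1) and ACGTG (the hypoxia core), searched on both strands, so that CCGCCC is a GC box on the other strand.
Adamts1, chr16:85803114-85803363, - strand: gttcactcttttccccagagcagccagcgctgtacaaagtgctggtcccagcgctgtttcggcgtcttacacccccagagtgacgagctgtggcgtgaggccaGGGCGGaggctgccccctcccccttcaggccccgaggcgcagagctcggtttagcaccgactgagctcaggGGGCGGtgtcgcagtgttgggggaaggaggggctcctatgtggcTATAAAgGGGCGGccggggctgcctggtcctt
Timp1, chrX:20869916-20870165, + strand: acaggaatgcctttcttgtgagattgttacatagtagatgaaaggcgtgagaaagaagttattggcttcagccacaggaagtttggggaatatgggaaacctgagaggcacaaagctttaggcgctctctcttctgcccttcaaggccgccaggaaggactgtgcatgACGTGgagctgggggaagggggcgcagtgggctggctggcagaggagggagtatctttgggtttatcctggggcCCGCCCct
Adamts1 held a TATA box whose first base lies 32 bases before the start, and GC boxes at 147, 76 and 25 bases before it. Timp1 held ACGTG at 82 and a GC box at 8 bases before its start. Of 32851 promoter windows of 300 bases (250 before and 50 after a start), 13.6% held TATAAA, 35.7% GGGCGG, 7.8% TGANTCA and 19.6% ACGTG. The 300-base windows held 18 CpG dinucleotides for Adamts1, 24 for Timp3, 25 each for Adamts9 and Timp2 and 8 for Timp1, against a median of 7 over all windows. The promoter table matched these 5 of the 8 genes. A match describes letters and not a bound factor.

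Adamts5, known as the main aggrecanase of cartilage, was lowest in the ipsilateral hemisphere after occlusion, but at levels near the background. The sham ipsilateral libraries held 3.22, 6.82 and 4.31 CPM and the sham contralateral ones 2.96, 2.96 and 2.31 CPM. In MCAO ipsilateral libraries it stood at 0.0456, 0.221 and 0.191 CPM, the first from 2 counts. MCAO contralateral libraries held 1.51, 2.22 and 0.857 CPM. All 6 sham libraries lay above all 6 MCAO libraries, and within MCAO all ipsilateral libraries lay below all contralateral ones.

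The log2 difference from sham was -4.94 ± 1.06 on the ipsilateral side, from 4.78 ± 1.84 to 0.153 ± 0.0938 CPM (SD, n = 3), and -0.84 ± 0.89 on the contralateral side, from 2.74 ± 0.379 to 1.53 ± 0.683 CPM, the latter -0.56 without MCAO contralateral replicate 3. The difference between those 2 differences was -4.10 ± 1.31. Within MCAO the ipsilateral side was lower than the contralateral by a log2 difference of -3.30 ± 0.98. In this Adamts5 was unlike its neighbour Adamts1, whose sides stood level after occlusion. The Hdac2 ECKO libraries held 0.297, 0.542 and 0.882 CPM, a log2 difference of 1.89 ± 0.94 from MCAO ipsilateral. Those labelled Ezh2 ECKO held 2.00, 1.31 and 7.94 CPM, a difference of 4.59 ± 1.04, which was 3.38 without replicate 3. Here the order of the ECKO groups was the reverse of that for Adamts1: Hdac2 ECKO was lower than Ezh2 ECKO by -2.70 ± 0.95, or -1.53 without Ezh2 ECKO replicate 3.

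Per kilobase, Adamts5 exceeded the receptor rows of the same library in 10 of 18 libraries: all 6 sham libraries, MCAO contralateral replicates 2 and 3, and Ezh2 ECKO replicates 1 and 3. It lay below them in all MCAO ipsilateral and all Hdac2 ECKO libraries. The 3 values of MCAO ipsilateral were 0.00422, 0.0205 and 0.0177 CPM per kilobase against a background of 0.0446, 0.0318 and 0.0527. The Hdac2 ECKO values, 0.0276, 0.0502 and 0.0817, lay below a background of 0.0540, 0.0763 and 0.106. In Ezh2 ECKO the background was 0.0502, 0.285 and 0.102, and the library with the most Adamts5, replicate 3, also had the highest sums of its group for pericyte markers (159 CPM) and for microglia and leukocyte markers (52.3 CPM). The pericyte sum of this group rested largely on Rgs5 by group mean, as given with Adamts1. The part of the background and of these cell types in the Adamts5 values was not tested.

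**Figure D3:**
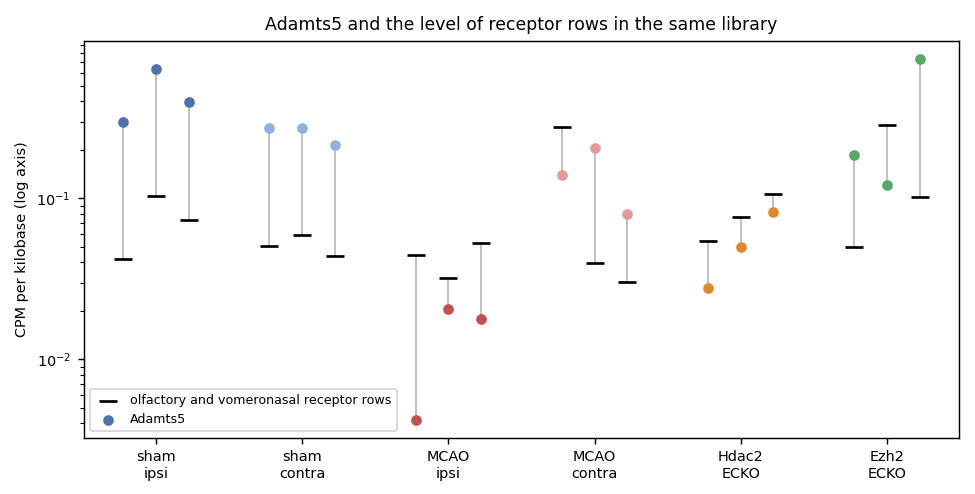
Adamts5 (circles) and the 1466 olfactory and vomeronasal receptor rows (dashes) in CPM per kilobase on a log axis, paired by a grey line within each of the 18 libraries. The 6 sham circles lie above their dashes, and the 6 circles of MCAO ipsilateral and Hdac2 ECKO lie below theirs.

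Adamts9, a widely made versican-cleaving protease, was higher in MCAO than in sham libraries on the ipsilateral side, without passing the test. It stood at 12.0, 9.56 and 15.1 CPM in sham ipsilateral and 24.8, 24.3 and 15.4 CPM in MCAO ipsilateral libraries, which did not overlap. The log2 difference was 0.81 ± 0.77 (SE; edgeR adjusted p = 0.819), and 1.43 with the receptor background as a covariate. On the contralateral side sham held 9.28, 8.34 and 7.59 CPM and MCAO 70.5, 30.1 and 3.41 CPM, a log2 difference of 2.04 ± 0.80 (edgeR adjusted p = 0.920). The highest and the lowest of the 6 wild-type MCAO libraries were thus both contralateral, and without MCAO contralateral replicate 1 the difference was 1.03. Libraries labelled Hdac2 ECKO held 2.61, 8.73 and 14.9 CPM, all below the lowest MCAO ipsilateral library (log2 difference -1.30 ± 0.78, edgeR adjusted p = 0.611, and -1.95 without replicate 3), and those labelled Ezh2 ECKO 3.50, 18.1 and 25.9 CPM. Exons of 2 opposite-strand transcripts, A730049H05Rik and Gm15737, overlap 1805 of the 15048 exon bases of Adamts9. The strand setting of the counting is not given in the sources used here, so their reads cannot be told apart from those of Adamts9 there.

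Adamts10 stood at 14.9 to 27.4 CPM in the wild-type ipsilateral libraries and lower in those labelled ECKO. Sham ipsilateral libraries held 27.4, 20.6 and 16.1 CPM and MCAO ipsilateral ones 22.7, 26.7 and 14.9 CPM, which differed by less than 1 standard error. Libraries labelled Hdac2 ECKO held 7.01, 12.8 and 12.6 CPM and those labelled Ezh2 ECKO 6.69, 6.40 and 7.83 CPM. All 6 lay below every MCAO library. Against MCAO ipsilateral the log2 difference was -0.99 ± 0.46 in Hdac2 ECKO (edgeR adjusted p = 0.496) and -1.62 ± 0.46 in Ezh2 ECKO (edgeR adjusted p = 0.0687), neither past the threshold of 0.05. The latter passed without MCAO contralateral replicate 1, at -1.63 (edgeR adjusted p = 0.0271), and in DESeq2, at -1.43 (adjusted p = 0.0069). Sham contralateral libraries, at 13.4, 9.42 and 17.7 CPM, lay below the MCAO contralateral ones, at 18.2, 27.3 and 18.7 CPM (log2 difference 0.66 ± 0.45, edgeR adjusted p = 0.920, and 0.43 without MCAO replicate 2).

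Adamts4, an aggrecanase, was barely read. Its level was between 0 and 5.55 CPM, it lay above the background per kilobase in 10 of 18 libraries, and 1 library labelled Hdac2 ECKO had 0 counts, which by the floor of 3 counts allows up to 0.0903 CPM, or more where both mates of a read pair were counted. Sham ipsilateral libraries held 0.536, 0.0953 and 0.107 CPM and MCAO ipsilateral ones 0.866, 0.485 and 2.27 CPM, a log2 difference of 2.27 ± 1.60 (edgeR adjusted p = 0.772). It was 1.47 without MCAO ipsilateral replicate 3 and 3.55 without sham ipsilateral replicate 1, and the groups overlapped in this and in the 6 other comparisons between groups. The highest value, 5.55 CPM, was that of Ezh2 ECKO replicate 1, whose fellow libraries held 0.228 and 0.839 CPM.

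Timp1, the inhibitor known as an injury-response gene, was higher in MCAO than in sham ipsilateral libraries, but its spread was wide. Sham ipsilateral libraries held 1.46, 0 and 0.268 CPM and MCAO ipsilateral ones 1.64, 5.23 and 12.6 CPM, which did not overlap. The log2 difference was 3.48 ± 1.73 (edgeR adjusted p = 0.707). It ran from 2.60 without MCAO ipsilateral replicate 3 to 5.60 without sham ipsilateral replicate 1. The contralateral libraries held 1.89, 1.21 and 0.528 CPM in sham and 0.0628, 2.35 and 3.34 CPM in MCAO, which overlapped. In Hdac2 ECKO, 2 libraries had 0 counts, which by the same floor allows up to 0.0903 and 0.0882 CPM, and the third held 0.661 CPM. All 3 lay below the MCAO ipsilateral libraries (log2 difference -4.88 ± 1.87, edgeR adjusted p = 0.430), and the size of that difference rests on the third library. Ezh2 ECKO libraries held 1.08, 0.313 and 8.22 CPM. The library with the most Timp1 in MCAO ipsilateral, replicate 3, had the highest microglia and leukocyte marker sum of its group (45.7 CPM) and the highest fibroblast marker sum (16.2 CPM). The library with the most Timp1 in Ezh2 ECKO, also replicate 3, likewise had the highest of both sums in its group (52.3 and 17.2 CPM). The 9 microglia and leukocyte markers summed to 4.22 to 8.99 CPM in sham ipsilateral and 15.1 to 45.7 CPM in MCAO ipsilateral libraries, with 0 of 9 at 0 throughout either group. The part of these cells and of fibroblasts in the Timp1 values was not tested.

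Timp2, which also takes part in the activation of pro-Mmp2, was lower in the libraries labelled Ezh2 ECKO. These held 0.377, 0.512 and 3.58 CPM, against 6.82, 11.3 and 18.8 CPM in MCAO ipsilateral libraries, with no overlap. Per kilobase the Ezh2 ECKO values were 0.0969, 0.131 and 0.918 CPM, against a receptor background of 0.0502, 0.285 and 0.102. Replicate 2 of Ezh2 ECKO thus lay below its background, and Timp2 exceeded the background in 16 of 18 libraries. The size of the differences below therefore rests on values near the background. The log2 difference was -3.05 ± 1.01 (edgeR adjusted p = 0.112). It passed in DESeq2, at -2.86 (adjusted p = 0.0182), and without MCAO contralateral replicate 1, at -3.04 (edgeR adjusted p = 0.0418), but it was -1.82 with the receptor background as a covariate and -4.80 without Ezh2 ECKO replicate 3. Libraries labelled Hdac2 ECKO held 7.47, 19.4 and 3.47 CPM and so overlapped with both groups. Hdac2 ECKO against Ezh2 ECKO gave a log2 difference of 2.76 ± 1.00 (edgeR adjusted p = 0.295; DESeq2 2.64, adjusted p = 0.0482). It was 1.82 without Hdac2 ECKO replicate 2 and 4.49 without Ezh2 ECKO replicate 3. Sham libraries spanned 2.42 to 14.8 CPM over both sides, and MCAO differed from sham by less than 1 standard error on either side.

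Timp3 was the most abundant member per kilobase in median and spanned 293 to 1013 CPM. Sham ipsilateral libraries held 576, 495 and 503 CPM, sham contralateral ones 553, 596 and 452 CPM, and MCAO ipsilateral ones 701, 588 and 417 CPM. MCAO contralateral libraries were highest, at 1013, 752 and 549 CPM, and differed from sham contralateral by a log2 value of 0.53 ± 0.32 (edgeR adjusted p = 0.920), or 0.31 without replicate 1. Libraries labelled Hdac2 ECKO held 679, 293 and 505 CPM and those labelled Ezh2 ECKO 368, 447 and 381 CPM. Ezh2 ECKO differed from MCAO ipsilateral by -0.51 ± 0.32 (edgeR adjusted p = 0.373), or -0.31 with RLE scaling, and the groups overlapped. Timp3 lies within the synapsin gene Syn3, which runs on the opposite strand, and exons of Syn3 overlap 1733 of its 8144 exon bases. The Syn3 row held 80.3 to 93.4% of the Timp3 count in the 18 libraries, so reads of the 2 rows cannot be told apart and the Timp3 level per kilobase carries that uncertainty.

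The numbers of members whose groups did not overlap are set beside the share of all tested genes for which this held. In MCAO against sham on the ipsilateral side, 2 members were higher without overlap (Adamts9 and Timp1) and 2 lower (Adamts1 and Adamts5), where 13.3% and 14.4% of the 17094 tested genes were. On the contralateral side 1 was higher (Adamts10; background 3.65%) and 2 were lower (Adamts1 and Adamts5; 6%). MCAO ipsilateral against contralateral had 1 lower (Adamts5; 1.88%) and 0 higher (3.49%). Sham ipsilateral against contralateral, which had no occlusion, still had 2 higher (Adamts5 and Adamts9; 8.44%) and 0 lower (6.98%). In Hdac2 ECKO against MCAO ipsilateral, 2 members were higher (Adamts1 and Adamts5; 9.54%) and 3 lower (Adamts9, Adamts10 and Timp1; 10.3%). In Ezh2 ECKO against MCAO ipsilateral, 2 were higher (Adamts1 and Adamts5; 13.6%) and 2 lower (Adamts10 and Timp2; 15.3%). Between the ECKO groups 1 was higher in Hdac2 ECKO (Adamts1; 6.87%) and 1 lower (Adamts5; 5.26%). The choice of the lead genes used these same values, so nothing is read from their part of the counts. For ranges pooled over 2 groups, as given above for Adamts1, Adamts5 and Adamts10, no share over all genes was taken. The 2 sides may come from the same mice, so pooled libraries are not shown to be independent.

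By the edgeR test over all 17094 genes, 0 of the 6 members other than the lead genes passed an adjusted p of 0.05 in any of the 8 comparisons. The share of all genes that passed was 1.46% (250 genes) in Ezh2 ECKO against MCAO ipsilateral, 0.0117% (2 genes) in Hdac2 ECKO against MCAO ipsilateral and 0.123% (21 genes) between the ECKO groups. It was 0% in the 4 wild-type comparisons and in the test of whether the MCAO effect differed by side, 5 comparisons in all. In these, in the order MCAO against sham ipsilateral, MCAO against sham contralateral, the sides of MCAO, the sides of sham and the difference between sides, 1210, 754, 526, 317 and 578 genes (7.08, 4.41, 3.08, 1.85 and 3.38%) had an unadjusted p under 0.05. DESeq2 called 71, 26, 6, 6 and 6 genes there. The median log2 difference of the 8 members was 0.46 in MCAO against sham ipsilateral, beside -0.09 over all tested genes. It was -0.27 beside 0.11 for Hdac2 ECKO and -0.48 beside 0.17 for Ezh2 ECKO, each against MCAO ipsilateral. These medians include the lead genes, whose choice used these same values, so nothing is read from them.

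**Figure D4:**
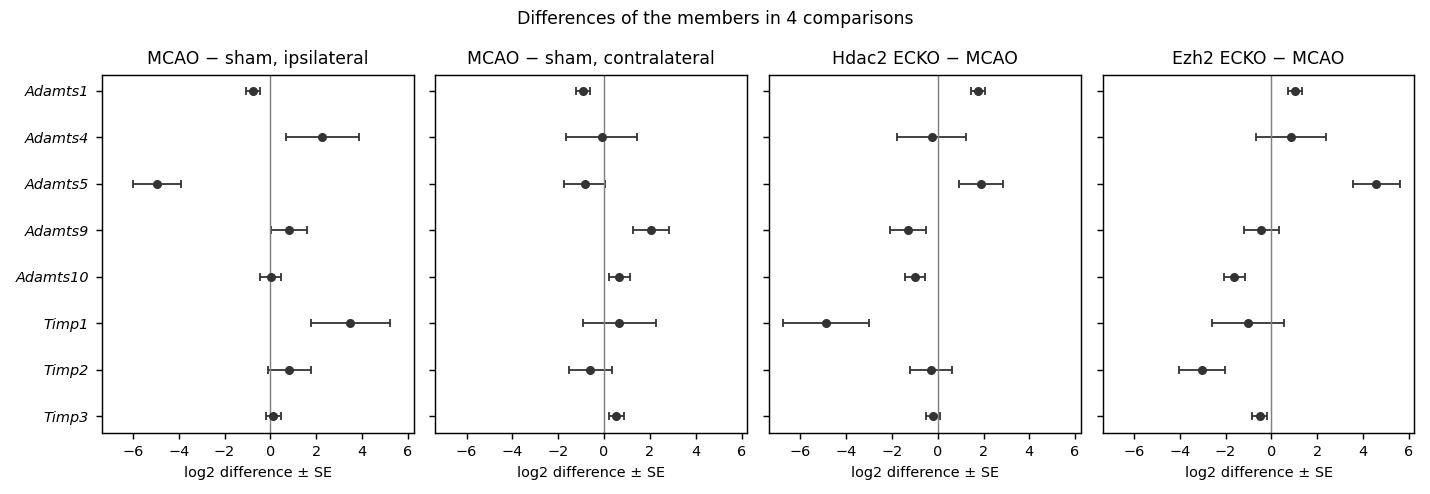
Fitted log2 difference (horizontal axis) with 1 standard error for the 8 genes in 4 comparisons, each panel named as the first group minus the second. Adamts1 lies at -0.74 and -0.91 in the 2 panels of MCAO against sham and at 1.77 and 1.02 in the 2 ECKO panels, and Adamts5 at -4.94, -0.84, 1.89 and 4.59.

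In the wider pathway 1 of 70 tested genes passed the same test in Ezh2 ECKO against MCAO ipsilateral, 1.43% beside the 1.46% of all genes, and 0 in the 7 other comparisons. Of 14 other Adamts proteases, 7 Adamts-like proteins, 16 matrix metalloproteinases, 10 membrane-bound Adam sheddases, 9 hyalectan substrates and partners, and 10 cofactors, activators and clearance receptors that were tested, 0 passed in any comparison. Of 4 tested inhibitors other than the Timp members, Reck passed in 1 comparison. Reck, a membrane-anchored inhibitor of metalloproteases that brain endothelium needs for Wnt7 signalling, was higher in Ezh2 ECKO than in MCAO ipsilateral libraries. It held 192, 127 and 207 CPM against 67.0, 73.6 and 66.0 CPM, without overlap. The log2 difference was 1.35 ± 0.32 (edgeR adjusted p = 0.0434), and over 25 alternatives it ran from 1.18 to 1.52 with adjusted p from 0.0032 to 0.190, under 0.05 in 10 of them. Reck held 115, 141 and 110.3 CPM in Hdac2 ECKO, above all MCAO ipsilateral libraries, and 87.1 to 159 CPM in sham libraries.

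The gene with the highest mean CPM over the 18 libraries within its own list was Sparc, a matrix-binding glycoprotein, among the cofactors (973 CPM), Adam10, the sheddase of Notch and cadherins, among the sheddases (281 CPM), and Reck among the inhibitors (112 CPM). It was Mmp19 among the matrix metalloproteinases (15.0 CPM), Adamtsl2 among the Adamts-like proteins (6.01 CPM), the hyaluronan synthase Has3 among the hyalectan genes (3.15 CPM) and Adamts6 among the other Adamts proteases (3.01 CPM). Adam10 was higher in Ezh2 ECKO than in MCAO ipsilateral libraries by a log2 difference of 1.27 ± 0.34 (edgeR adjusted p = 0.0594), with 462, 318 and 390 CPM against 181, 108 and 197 CPM, without passing the threshold. Sham libraries held 247 to 407 CPM over both sides, which overlapped with the Ezh2 ECKO ones and lay above the MCAO ipsilateral ones. The 14 other Adamts proteases had a median log2 difference of -0.90 in MCAO against sham ipsilateral, with 12 of 14 below 0, and of 1.61 in Ezh2 ECKO against MCAO ipsilateral, with 12 of 14 above 0. The medians over all tested genes were -0.09 and 0.17. On the contralateral side the median was 1.37 in MCAO against sham, with 10 of 14 above 0, the opposite direction, and between the sham sides, with no occlusion, it was 0.89, also with 10 of 14 above 0. Of these 14 genes, 12 had a mean under 1 CPM, at 0.0205 (Adamts2) to 0.0716 (Adamts14) CPM per kilobase. The receptor background ran from 0.0300 to 0.285 CPM per kilobase over the libraries, so these 12 genes lay near it. Its group medians were 0.0737 in sham ipsilateral, 0.0446 in MCAO ipsilateral and 0.102 in Ezh2 ECKO libraries. On the contralateral side they were 0.0507 in sham and 0.0397 in MCAO, where 1 library stood at 0.279. The 5 tested neuron markers had medians of -1.45, 2.20, 2.10 and 0.99 in the same 4 comparisons in the same order. The part of the background and of neuron transcripts in the values of these proteases was not tested. The matrix metalloproteinases had medians of -0.52 in MCAO against sham ipsilateral and 0.25 in Ezh2 ECKO against MCAO ipsilateral, which share the MCAO ipsilateral libraries. The latter lay near the 0.17 of all tested genes. In MCAO against sham contralateral the median was 0.71, the opposite direction, with 11 of 16 above 0. Between the sham sides, with no occlusion, it was 0.37, with 13 of 16 above 0.

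**Figure D5:**
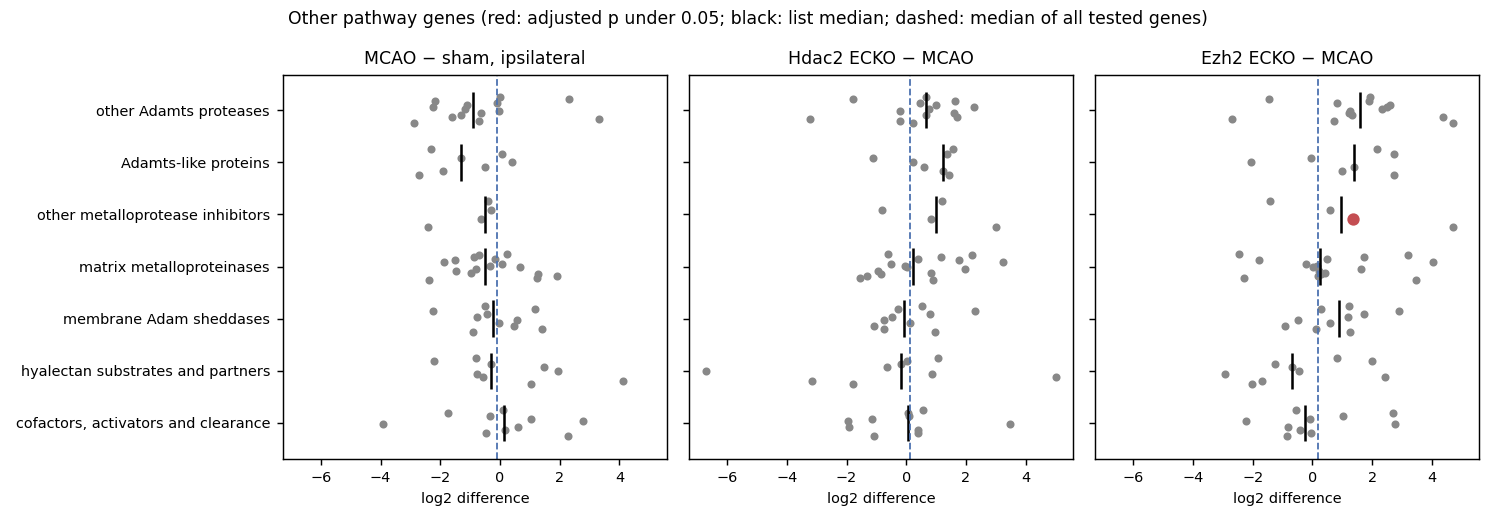
Log2 differences (horizontal axis) of the tested genes of 7 pathway lists in 3 comparisons; grey points are genes that did not pass, the red point is Reck, black bars are list medians and the dashed line is the median of all 17094 tested genes. The bar of the other Adamts proteases lies at -0.90, 0.66 and 1.61 in the 3 panels.

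Across the 18 libraries and 11729 genes whose mean CPM was 1 or more, the genes whose log2 levels followed Adamts1 most closely were Auts2 (Pearson r of 0.891), Il6ra, the interleukin-6 receptor (0.872), and Marcks, an actin-binding kinase substrate (0.852). Auts2 had group means of 43.2 and 45.1 CPM in sham, 18.6 and 16.6 CPM in MCAO (ipsilateral and contralateral), 80.4 CPM in Hdac2 ECKO and 67.0 CPM in Ezh2 ECKO. Those nearest to Adamts5 were Ntm, a neuronal adhesion protein (0.813), Zc3h11a, an RNA-binding zinc finger protein (0.789), and Pcdh12, an endothelial protocadherin (0.784). Pcdh12 held 3.63 and 3.96 CPM in sham, 0.759 and 1.91 CPM in MCAO, 0.506 CPM in Hdac2 ECKO and 2.65 CPM in Ezh2 ECKO. These values describe libraries that share groups and scaling, and each is the extreme of many.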

How the data were processed

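The authors' deposited table holds counts per gene for 18 RNA-seq libraries (SMART-Seq v4 PLUS, paired reads, per the labels' protocols). Its name calls the values normalized, but they were whole numbers with unequal totals, and low counts were mostly even (77.3 to 89.4% of those between 1 and 20), so they were taken as unscaled counts. The submitters' processing notes name FastQC, cutadapt, STAR, featureCounts and DESeq2 with the build mm10; versions, annotation and strand setting are not given in the sources used here. A total of 0 columns were left without a sample.

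Groups and replicate numbers came from the titles. One edgeR 4.0.16 quasi-likelihood fit (R 4.3.3, TMM scaling) of 6 group means covered all 18 libraries and the 17094 genes with at least 10 counts in at least 3 libraries; adjusted p-values are Benjamini-Hochberg over these, with a threshold of 0.05. The SE is the log2 difference divided by the square root of F. CPM uses TMM-scaled totals. The fit was also run on counts simulated from its own dispersion estimates, which checks the computation and not the calls in these data. The common biological coefficient of variation was 0.774. Likeness used log2(CPM + 0.5). Floors of 3 counts cover counting error only. Deviations from the group mean correlated at -0.168 to 0.271 between same-numbered libraries of the compared groups. The labels do not say that a shared number is a shared mouse, so the numbers were not taken as pairs.

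The members and gene lists were chosen with earlier results of these data known. All 8 members are named, with each called list gene (at most 3 per list and comparison), the most abundant gene of each list and the 3 genes most like each lead gene. Alternatives were RLE factors, DESeq2 1.42.0, 2 other filters, fits of only the groups compared, a replicate block, a background covariate and each library left out.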

Additional observations from a re-analysis of the deposited data

How the results depend on the processing

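A set of 36 member fold changes was followed (all of Adamts1 and Adamts5, and those of the others beyond 1 standard error between groups), and not all of them are printed above. They kept their sign under the alternatives tried, except those of Adamts1 between the sides of MCAO, between the sides of sham and in the difference between sides, each within 1 standard error of 0. The 28 other member fold changes were within 1 standard error of 0 or were differences between sides of genes other than the lead genes. Of these, 16 changed sign under at least 1 alternative and 0 crossed the threshold. The number of genes called moved more. DESeq2 called 71, 26, 6 and 6 genes in MCAO against sham ipsilateral, MCAO against sham contralateral, the sides of MCAO and the sides of sham, and 239 for Hdac2 ECKO, 1617 for Ezh2 ECKO (both against MCAO ipsilateral), 647 between the ECKO groups and 6 for the difference between sides. For MCAO against sham ipsilateral (0 called), no filter gave 2, only the groups compared 74 and the background covariate 1. For Hdac2 ECKO (2 called), RLE factors gave 4, the filter of 10 counts in 6 libraries 4, only the groups compared 0 and the background covariate 10. For Ezh2 ECKO (250 called), the stricter filter gave 380, only the groups compared 485 and the background covariate 13. Between the ECKO groups (21 called), no filter gave 38 and the background covariate 54, and for the difference between sides only the groups compared gave 1. With the replicate number as a block, 12 genes were called for Ezh2 ECKO and 9 between the ECKO groups. By mean correlation over all other groups, 2 of 18 libraries were nearest to the libraries of their own number. Most of those groups cannot share a mouse, so this count cannot decide whether the 2 sides of a mouse share a number. Between the sides, same-numbered libraries correlated at 0.119, 0.270 and 0.015 in MCAO and at 0.172, 0.191 and -0.058 in sham. Leaving out each library gave 0 to 1 genes in MCAO against sham on either side, 0 to 18 for Hdac2 ECKO, 7 to 191 between the ECKO groups and 5 to 1362 for Ezh2 ECKO, where 1362 came without MCAO contralateral replicate 1, 5 without MCAO ipsilateral replicate 1 or 2, and 8 without Ezh2 ECKO replicate 3. Libraries of 3 per group and a common coefficient of variation of 0.774 limit what can be called, and Adamts4, Adamts5 and Timp1 are limited by their low counts; if both mates of a pair were counted, as the even counts leave possible, 3 counts are fewer than 3 fragments and the floors are too low. The causes of these shifts were not tested.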
